A study of Mus musculus with 12 samples.

Results

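The comparison described here is between the cerebella of 3 *Snx14*-KO mice and 3 WT mice at 1 month of age, which make up 6 of the 12 RNA-Seq libraries of the study. The other 6 libraries are the cerebral cortices of the same age. The members were taken by the tissue and genotype in the sample labels, and each cerebellar library is named for a different mouse. The labels give the same mouse names to the cortex libraries. The *Snx14*-KO mice carry a frameshift allele made with Cas9 in C57BL/6J embryos, so the gene is lost in every tissue, and all of them descend from this allele after backcrosses to C57BL/6J. The labels give WT mice of the same age as controls, with no treatment in either genotype. The tissue was whole dissected cerebellum, a mixture of cell types, so fewer cells of a type and less RNA per cell cannot be told apart in these values.

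The cerebellum is packed with granule neurons, which feed the Purkinje cells (PCs), the sole output neurons of its cortex, and PCs in turn project mainly to the neurons of the deep cerebellar nuclei. Bergmann glia and other astrocytes, oligodendrocytes, microglia, vessels and the meninges that cover the folia contribute the rest of the RNA, and the choroid plexus of the fourth ventricle adjoins it. SNX14 is a sorting nexin of the endoplasmic reticulum membrane that gathers at contacts with lipid droplets, and its loss in people causes an early-onset cerebellar ataxia.

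Gene counts summed to between 16790722 and 19887427 per library, and levels are given as CPM, which are counts scaled to a common library size with TMM factors. Of 55536 genes, 24071 had no count in any of the 6 libraries and 18201 had enough counts to be tested. The main test of *Snx14*-KO against WT was the quasi-likelihood test of edgeR, and a gene was called differentially expressed (DEG) at a Benjamini-Hochberg adjusted p under 0.05 with a log2 fold change beyond 0.5 in either direction. Each fitted log2 fold change is given with its standard error (SE). The cerebellar marker genes checked with the label were abundant in all 6 libraries, with a summed level of 13342 to 14654 CPM in WT and 10510 to 13458 CPM in *Snx14*-KO cerebella. In each genotype, replicate 1 had a high *Xist* count with at most 2 counts over the Y-linked genes, and replicates 2 and 3 had 3025 to 3428 Y-linked counts, so both genotypes held 1 library of one sex and 2 of the other. All 37 genes carried on the mitochondrial genome were listed at 0 in every library.

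Several libraries stood apart from the others of their genotype before any genotypes were compared. The number of genes over 2-fold away from both other libraries was counted among genes with a mean of at least 1 CPM, on the log2(CPM + 0.5) scale. *Snx14*-KO replicate 2 was below both others for 158 genes, and *Snx14*-KO replicate 3 was above both others for 104. WT replicate 1 was below both others for 145 genes, and WT replicate 3 was above both others for 190. The remaining counts ran from 3 to 25 genes. The genes named in the next sentences were chosen after their values were seen, among the more abundant of each set.

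*Nrgn*, which encodes the calmodulin-binding protein neurogranin of neurons, was at 6.37, 4.52 and 2.09 CPM in WT replicates 1, 2 and 3. It was at 127, 9.65 and 124 CPM in *Snx14*-KO replicates 1, 2 and 3. The transcription factor gene *Tcf7l2* was at 7.06, 8.44 and 4.98 CPM in WT and at 65.2, 6.92 and 68.2 CPM in *Snx14*-KO cerebella. *Snx14*-KO replicates 1 and 3 were therefore far above the WT range for both genes, while replicate 2 lay close to it. The vesicular glutamate transporter gene *Slc17a6* followed this pattern, with 31.3, 30.9 and 28.6 CPM in WT and 107, 24.5 and 112 CPM in *Snx14*-KO cerebella. The GABA transporter gene *Slc6a11* was at 75.6, 72.8 and 70.2 CPM in WT and at 196, 68.1 and 209.8 CPM in *Snx14*-KO cerebella. *Hap1*, *Basp1*, *Enc1*, *Gpr26* and *Grm5* stood in the same set, in which replicate 2 did not exceed the highest WT library for 135 of the 158 genes. Of the 158 genes, 113 had an unadjusted p under 0.05 as higher in *Snx14*-KO cerebella, against 5.85% of all tested genes. The set was defined by high values in *Snx14*-KO replicates 1 and 3 relative to replicate 2, so this count partly follows from the choice of genes.

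Among the more abundant genes that were highest in *Snx14*-KO replicate 3 were *Ctsd*, *Gfap* and *C1qa*. *Ctsd*, a lysosomal protease gene, was at 310, 411 and 422 CPM in WT and at 382, 430 and 984 CPM in *Snx14*-KO cerebella. *Gfap*, the intermediate filament of astrocytes, was at 285, 323 and 309 CPM in WT and at 390, 465 and 971 CPM in *Snx14*-KO cerebella. *C1qa*, a complement subunit gene of microglia, was at 23.2, 32.9 and 23.3 CPM in WT and at 32.7, 36.7 and 89.4 CPM in *Snx14*-KO cerebella. All 104 genes of this set were above the 3 WT libraries in replicate 3, of which 47 reached an unadjusted p under 0.05 as higher, against 5.85% of all tested genes. A high value in 1 *Snx14*-KO library defined the set and favours such a call. The microglia and macrophage markers summed to 98.5 to 122 CPM in WT, to 125 and 126 CPM in *Snx14*-KO replicates 1 and 2, and to 258 CPM in replicate 3. The astrocyte and Bergmann glia markers summed to 3552 to 3974 CPM in WT and to 3855, 4453 and 4853 CPM in *Snx14*-KO replicates 1, 2 and 3, so that only *Snx14*-KO replicate 1 lay within the WT range. All 6 astrocyte markers fitted higher values, with a median log2 fold change of 0.25, and 3 had an unadjusted p under 0.05, while DESeq2 called 0.

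The choroid plexus genes separated the WT libraries instead. *Ttr*, the thyroid hormone carrier secreted by the choroid plexus, was at 54.9, 2629 and 7230 CPM in WT and at 1955, 3171 and 938 CPM in *Snx14*-KO cerebella. The 8 choroid plexus markers had a median log2 fold change of -0.74, and none had an unadjusted p under 0.05. *Fos*, an immediate early gene of neuronal activity, was highest in WT replicate 1 at 46.8 CPM and in *Snx14*-KO replicate 2 at 65.2 CPM, and ran from 3.89 to 20.4 CPM in the other 4 libraries. The receptor genes *Nr4a1*, *Nr4a2* and *Nr4a3*, which are induced with it, were also highest in those 2 libraries.

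**Figure D1:**
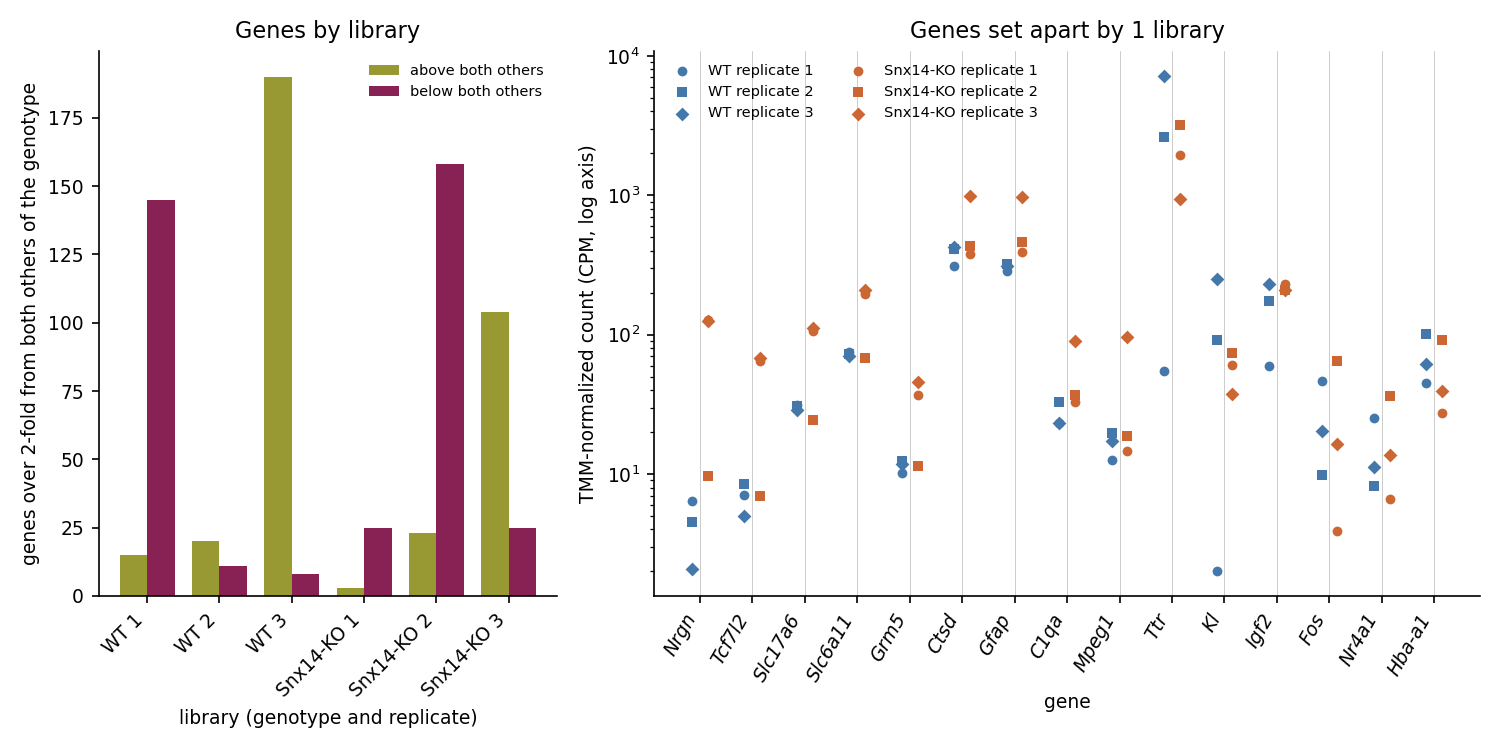
Left, number of genes over 2-fold above or below both other libraries of the genotype (y axis) for each library (x axis). Right, TMM-normalized counts in CPM on a log axis for 15 genes, with WT libraries in blue, *Snx14*-KO libraries in orange and a marker shape for each replicate. *Nrgn* to *Grm5* are high in *Snx14*-KO replicates 1 and 3 alone, *Ctsd* to *Mpeg1* are highest in *Snx14*-KO replicate 3, and *Ttr* and *Kl* spread widest within WT.

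*Snx14* itself (ENSMUSG00000032422.17) (GRCm38, chromosome 9, 88376750 to 88438958, minus strand) was at 65.9, 66.4 and 70.6 CPM in WT and at 10.8, 11.5 and 11.9 CPM in *Snx14*-KO cerebella. The groups were far apart and each was tight. The log2 fold change was -2.57 (SE 0.0831, edgeR adjusted p = 2.04e-06). Among 19 tested genes that lie within 1 Mb of *Snx14*, counting *Snx14*, only *Gm20537*, *Tbx18* and *Bcl2a1b* also had an unadjusted p under 0.05. *Gm20537* fitted a log2 fold change of -0.62 (SE 0.104, edgeR adjusted p = 0.131), but 88.1% of its exon bases are shared with other genes, mainly *Snx14*, and read pairs there were counted for each. *Tbx18*, a mesenchymal transcription factor gene, fitted 1.05 (SE 0.33, edgeR adjusted p = 0.400). *Bcl2a1b* fitted 2.26 (SE 0.871, edgeR adjusted p = 0.515) from a WT mean of 0.374 CPM, with 49.1% of its exon bases shared, mainly with *Gm29094*. *Syncrip*, which lies next to *Snx14*, fitted 0.05 (SE 0.0721).

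Over all tested genes, the *Snx14*-KO and WT cerebella differed more often upward than downward. By edgeR's quasi-likelihood test, 1 gene was upregulated, *Ptgds*, and 1 was downregulated, *Snx14*, each being 0.00549% of the genes. At an unadjusted p under 0.05, 1064 genes (5.85%) were higher and 430 (2.36%) were lower in *Snx14*-KO cerebella. With 1 library left out these counts ran from 633 and 312 without *Snx14*-KO replicate 3 to 1369 and 657 without *Snx14*-KO replicate 2. The *Snx14*-KO libraries all lay above the WT libraries for 1272 genes (6.99%) and all below them for 956 (5.25%). With 3 mice per genotype, some genes separate in this way, or reach an unadjusted p under 0.05, without a genotype difference. These shares were not tested against that. The median log2 fold change over all genes was 0.00, with quartiles of -0.09 and 0.12. An unadjusted p under 0.05 in the fit of 6 libraries and also in each of the 6 fits that left out 1 library was found for 411 higher genes (2.26%) and 127 lower genes (0.698%).

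DESeq2, which the study used, called 168 genes higher (0.846% of 19867 with an adjusted p) and 11 lower (0.0554%) at the same thresholds. Of the 168, 150 were also tested by edgeR (0.824% of those genes), as were all 11 lower genes (0.0604%). All 150 had an unadjusted p under 0.05 in edgeR's test, and their median fold was 2.32, from 1.44 to 20.2. *Snx14*-KO replicates 1 and 3 lay above the highest WT library for all 150 and replicate 2 for 135. In 33 of the 150 (22%), replicate 2 was over 2-fold below both other *Snx14*-KO libraries. The call counts turned on single mice. Without *Snx14*-KO replicate 2, edgeR called 265 genes higher (1.42%) and 10 lower (0.0536%), and in 111 of these 265 replicate 2 was over 2-fold below both others. DESeq2 called 26 genes higher and 2 lower, *Snx14* and *Gm20537*, in every one of its 6 fits that left out a library, while its count of higher genes ran from 34 without *Snx14*-KO replicate 3 to 326 without *Snx14*-KO replicate 2.

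**Figure D2:**
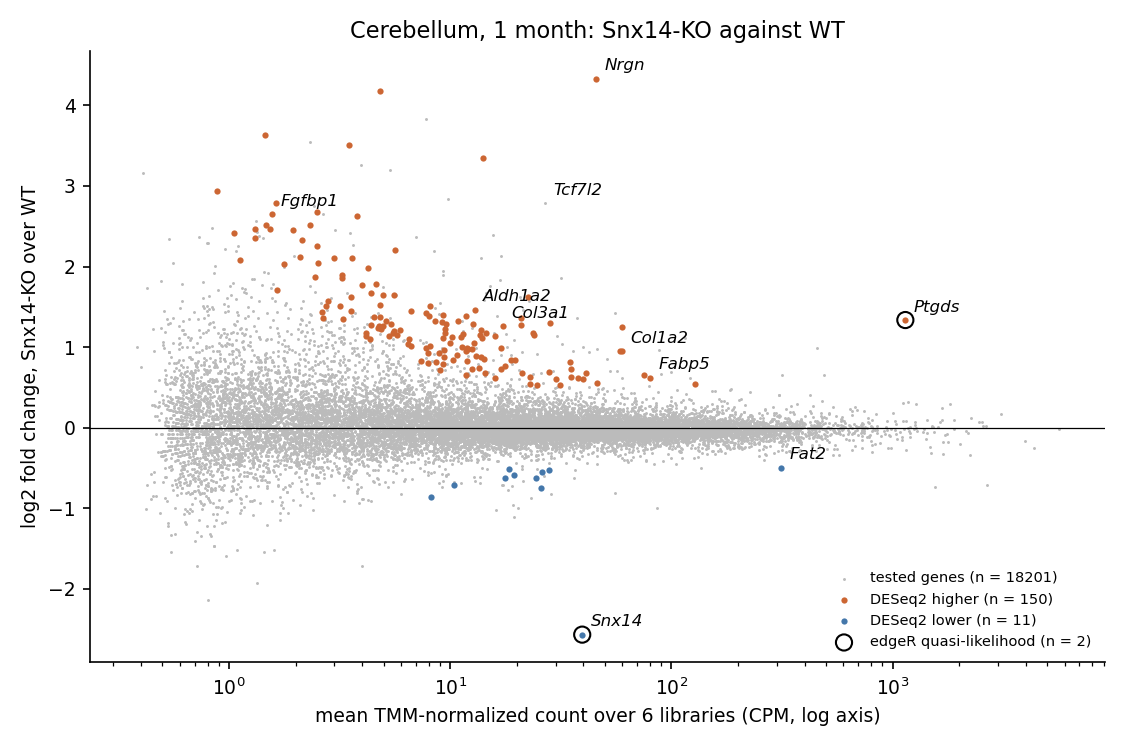
Log2 fold change of *Snx14*-KO over WT (y axis) against the mean TMM-normalized count in CPM on a log axis (x axis) for the 18201 tested genes. Orange and blue points were called higher or lower by DESeq2, and circles mark *Ptgds* and *Snx14*, the genes called by edgeR. Higher calls lie mostly between 1 and 100 CPM.

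The 26 genes called higher by DESeq2 in every such fit included 6 collagen chains, *Col1a1*, *Col1a2*, *Col3a1*, *Col6a1*, *Col6a2* and *Col12a1*. They also included the matrix genes *Aebp1*, *Mrc2*, *Vtn*, *Islr*, *Fstl1* and *Ccn2*, and the transporter genes *Slc22a8*, *Slc22a6* and *Slc26a7*. The others were *Ptgds*, *Fgfbp1*, *Aldh1a2*, *Ildr2*, *Isyna1*, *Alcam*, *Fabp5*, *Cd74*, *Rtel1*, *Gm37264* and *Asic4*, the last pair sharing exon bases (22.5% of those of *Gm37264*). Of the 26, 19 had a mean between 10 and 100 CPM, 6 between 1 and 10 and 1 above 100. These 26 genes were chosen by their own values and 5 of them stand in the meningeal fibroblast list, so they serve as a description.

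Sequence upstream of the transcription start is shown for *Snx14*, the targeted gene, and for the enzyme and matrix genes *Ptgds*, *Aldh1a2* and *Col1a2*, which were among the higher genes with the smallest p. The 100 bases before the RefSeq start (GRCm38.p6) are given 5′ to 3′ on the strand of the gene. Capitals mark a GC box, whose letters are GGGCGG, or a CCAAT box. A TATA box, spelled TATAAA, was also searched, each on both strands, and no matches overlap here. The *Snx14* stretch is chr9:88438930-88439029 on the minus strand, *Ptgds* is chr2:25469750-25469849 on the minus strand, *Aldh1a2* is chr9:71215689-71215788 on the plus strand and *Col1a2* is chr6:4505518-4505617 on the plus strand.
Snx14: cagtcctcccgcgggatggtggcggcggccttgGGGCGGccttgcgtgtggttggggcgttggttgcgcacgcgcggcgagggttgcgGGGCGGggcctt
Ptgds: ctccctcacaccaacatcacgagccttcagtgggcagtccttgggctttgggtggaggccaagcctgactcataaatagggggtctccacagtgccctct
Aldh1a2: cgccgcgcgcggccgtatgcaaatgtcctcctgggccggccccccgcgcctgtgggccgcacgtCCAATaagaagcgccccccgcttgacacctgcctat
Col1a2: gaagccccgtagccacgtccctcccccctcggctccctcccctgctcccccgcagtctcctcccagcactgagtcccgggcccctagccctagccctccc
*Snx14* has 2 GC boxes, *Aldh1a2* has a CCAAT box that starts 36 bases before the transcription start, and the other 2 stretches hold none of the 3 motifs. Over the 250 bases before the start, GGGCGG was found in 32.7% of all 32851 listed promoters and in 57.0% of the 12244 that matched a tested gene. It was found in 49 of the 100 promoters matched among the genes DESeq2 called higher. CCAAT was found in 36.0% of the matched promoters and in 34 of these 100, and TATAAA in 6.53% and in 12 of 100. These matches are descriptions of letters, not of binding.

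*Ptgds* (ENSMUSG00000015090.13, chromosome 2 from 25466709 to 25470046, minus strand) encodes lipocalin-type prostaglandin D synthase, which is made by meningeal cells and oligodendrocytes and also carries lipids in the cerebrospinal fluid. It was at 705, 747 and 493 CPM in WT and at 1636, 1538 and 1737 CPM in *Snx14*-KO cerebella, so that all 3 *Snx14*-KO mice were over 2 times the highest WT mouse. It rose 2.53-fold, with a log2 fold change of 1.34 (SE 0.144, edgeR adjusted p = 0.0493). The adjusted p was just under the threshold and lay above it without WT replicate 1 (0.124), *Snx14*-KO replicate 1 (0.196) or *Snx14*-KO replicate 3 (0.228). It also lay above it, between 0.0514 and 0.111, with edgeR's legacy fit, RLE size factors, a mean CPM of 1 or more, no genes sharing exon bases, the replicate block or a term for sex, the block giving 0.0621. Its log2 fold change stayed between 1.16 and 1.45 in the fits that left out 1 library. Per kilobase of exon sequence, *Ptgds* averaged 693 CPM over the 6 libraries.

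Of 38 tested collagen chains, a group counted after the values were seen, 15 (39.5%) were higher and 0 lower at an unadjusted p under 0.05, against 5.85% and 2.36% of all tested genes, and DESeq2 called 10 higher. Their median log2 fold change was 0.25. The genes described next were taken from the 20 higher genes with the smallest p, so that their direction is fixed by that choice. *Col6a2*, a chain of the microfibrillar collagen VI, was at 7.52, 7.05 and 5.04 CPM in WT and at 15.6, 19.1 and 16.6 CPM in *Snx14*-KO cerebella. The fitted log2 fold change was 1.39 (SE 0.167, edgeR adjusted p = 0.0550, DESeq2 adjusted p = 8.51e-09). *Col1a2*, a chain of the fibrillar collagen I, was at 36.3, 50.2 and 35.5 CPM in WT and at 80.8, 74.1 and 81.1 CPM in *Snx14*-KO cerebella (log2 fold change 0.95, SE 0.126). *Col3a1* was at 9.35, 13.3 and 8.15 CPM in WT and at 22.1, 29.2 and 22.4 CPM in *Snx14*-KO cerebella (1.26, SE 0.188), and *Col12a1* and *Col6a1* fitted 1.13 (SE 0.153) and 1.22 (SE 0.194). *Aebp1*, which encodes a collagen-binding protein, fitted 1.30 (SE 0.177), with *Snx14*-KO replicate 2 lowest of its genotype at 29.9 CPM against 18.7 CPM in the highest WT mouse. *Mrc2*, the collagen uptake receptor Endo180, fitted 1.11 (SE 0.157), and *Vtn*, the adhesive glycoprotein vitronectin, fitted 0.66 (SE 0.104). None of these genes passed edgeR's adjusted threshold, where their adjusted p ran from 0.055 to 0.118.

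Markers of meningeal fibroblasts moved with this group. The 13 listed markers, of which *Col1a1*, *Col1a2* and *Col3a1* are members, summed to 184, 378 and 392 CPM in WT and to 543, 502 and 535 CPM in *Snx14*-KO replicates 1, 2 and 3. All 13 fitted higher values, with a median log2 fold change of 1.15, 10 had an unadjusted p under 0.05 (against 5.85% of all tested genes) and 9 were called by DESeq2 (against 0.824%). None of the defining markers was at 0 in all 6 libraries together. *Dcn*, the proteoglycan decorin, was at 26.0, 41.1 and 27.8 CPM in WT and at 50.9, 49.5 and 51.1 CPM in *Snx14*-KO cerebella, while *Igf2*, *Slc13a4* and *Lum* overlapped between the genotypes. The part of the amount of meningeal tissue in these differences was not tested.

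Of the 20 higher genes with the smallest p, 3 encode transporters. *Slc22a8*, an organic anion transporter, was at 9.64, 10.2 and 6.91 CPM in WT and at 21.4, 19.2 and 19.9 CPM in *Snx14*-KO cerebella (log2 fold change 1.18, SE 0.150, edgeR adjusted p = 0.0550). *Slc26a7*, an anion exchanger, was at 2.41, 3.68 and 3.34 CPM in WT and at 7.79, 7.67 and 7.61 CPM in *Snx14*-KO cerebella (1.29, SE 0.190). The genotypes did not overlap for either gene, and the spread was wider in WT than in *Snx14*-KO cerebella. *Slc22a2*, an organic cation transporter, stayed under 1 CPM in every library and had at most 0.121 CPM in WT, where its fitted fold change rests on very few read pairs. Over all 260 tested solute carriers, 29 (11.2%) were higher and 3 (1.15%) lower at an unadjusted p under 0.05, against 5.85% and 2.36% of all tested genes, and 9 were called higher by DESeq2. The family median log2 fold change was 0.02. The meningeal fibroblast list given above, which holds 4 solute carriers, was higher in the same libraries, and its part in these counts was not tested.

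The 20 higher genes with the smallest p also held enzymes and a lipid-binding protein, and being higher was fixed by that choice. *Aldh1a2*, which makes retinoic acid and is listed as a meningeal marker, was at 4.99, 9.10 and 6.57 CPM in WT and at 18.1, 20.2 and 18.7 CPM in *Snx14*-KO cerebella (log2 fold change 1.47, SE 0.186, edgeR adjusted p = 0.0550). *Isyna1*, the enzyme that makes inositol phosphate from glucose phosphate, was at 20.5, 23.0 and 21.1 CPM in WT and at 35.0, 32.0 and 37.0 CPM in *Snx14*-KO cerebella (0.69, SE 0.0937). *Fabp5*, a fatty acid-binding protein, was at 71.8, 58.2 and 59.0 CPM in WT and at 87.8, 101 and 102 CPM in *Snx14*-KO cerebella (0.62, SE 0.0998). *Uchl1*, an abundant deubiquitinase of neurons, was at 134, 126 and 126 CPM in WT and at 181, 162 and 188 CPM in *Snx14*-KO cerebella (0.46, SE 0.0741). Its antisense partner *Uchl1os* fitted 0.50 (SE 0.100), and since strands were not separated and 18.1% of the exon bases of *Uchl1* are shared, their reads cannot be told apart there. These genes did not overlap between the genotypes and did not pass edgeR's adjusted threshold.

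The remaining named higher genes act in adhesion, growth factor signalling and antigen presentation. *Fgfbp1*, which releases fibroblast growth factors from the matrix, was at 0.287, 0.543 and 0.453 CPM in WT and at 2.60, 2.62 and 2.94 CPM in *Snx14*-KO cerebella (log2 fold change 2.65, SE 0.327, edgeR adjusted p = 0.0550). It had the largest fold among the 20 named genes with a WT mean over 0.2 CPM. *Alcam*, an immunoglobulin-like adhesion molecule of axons and vessels, was at 39, 44.1 and 37.6 CPM in WT and at 74.3, 64.8 and 93.6 CPM in *Snx14*-KO cerebella (0.95, SE 0.131). *Ildr2*, a membrane protein of the endoplasmic reticulum and of tricellular contacts, was at 9.18, 13.1 and 12.7 CPM in WT and at 32.8, 23.8 and 33.7 CPM in *Snx14*-KO cerebella (1.37, SE 0.173). *Snx14*-KO replicate 2 was the lowest of its genotype for both, and above all WT mice. *Cd74*, the invariant chain of MHC class II, was at 1.95, 2.53 and 3.57 CPM in WT and at 6.74, 7.27 and 6.91 CPM in *Snx14*-KO cerebella (1.37, SE 0.222, edgeR adjusted p = 0.118), with replicate 3 in the range of the other mice.

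**Figure D3:**
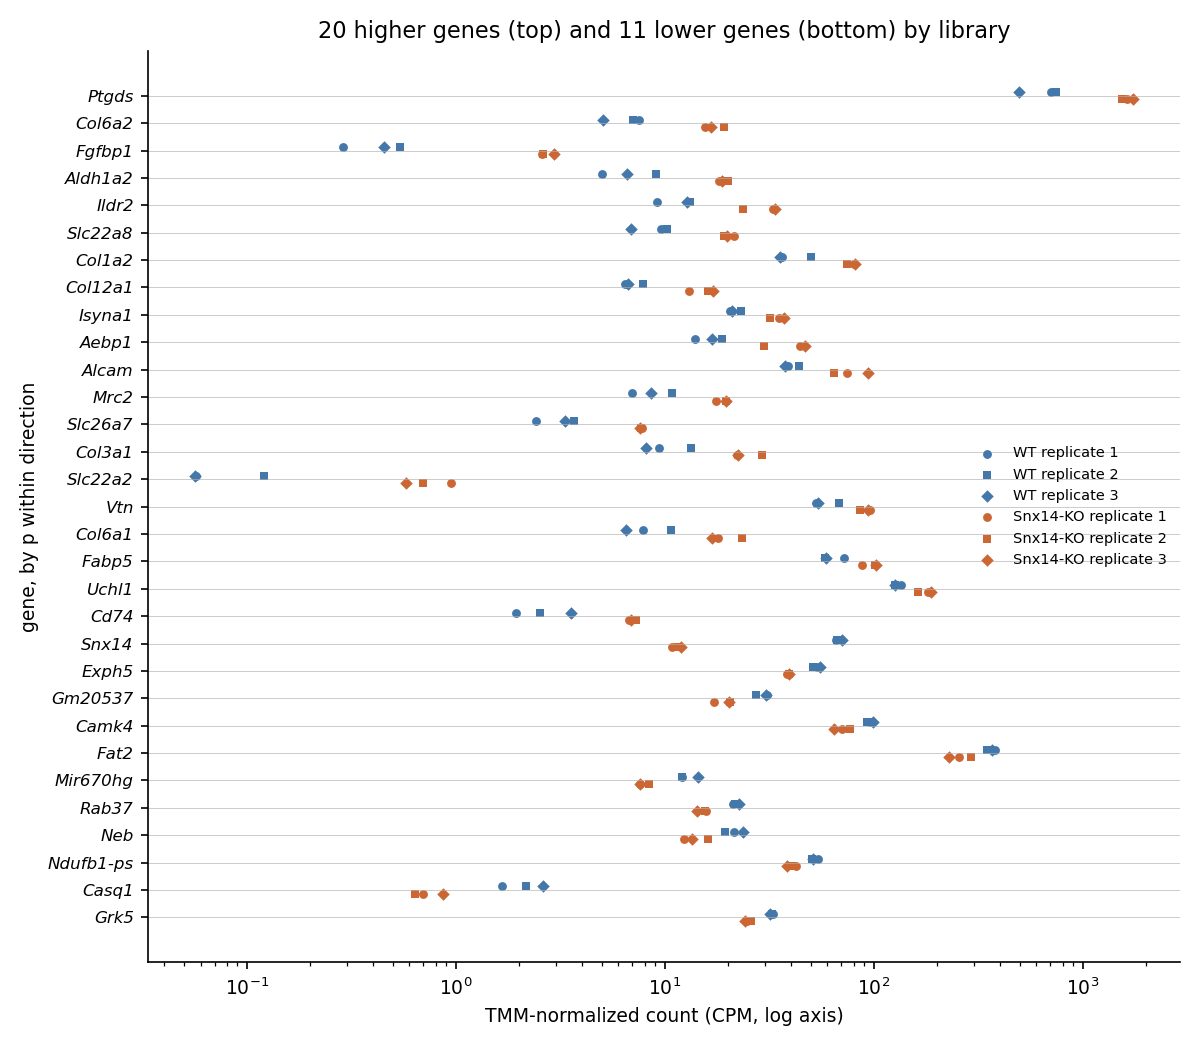
TMM-normalized counts in CPM on a log axis (x axis) for the 20 higher genes with the smallest p, then *Snx14* and the 10 lower genes with the smallest p (y axis). Blue points are WT and orange points *Snx14*-KO libraries, with a marker shape for each replicate. The genotypes do not overlap for any of the genes plotted, which the choice by p favours, and the gap is widest for *Snx14*. Over all tested genes, 6.99% do not overlap as higher and 5.25% as lower.

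Among the lower genes, *Snx14* alone passed edgeR's adjusted threshold. *Exph5*, a Rab27 effector gene, was at 53.2, 50.9 and 55.4 CPM in WT and at 38.2, 39.3 and 39.1 CPM in *Snx14*-KO cerebella (log2 fold change -0.45, SE 0.0709, edgeR adjusted p = 0.118). *Fat2*, a giant protocadherin-like protein of granule neurons, was at 378, 349 and 369 CPM in WT and at 256, 293 and 230 CPM in *Snx14*-KO cerebella (-0.50, SE 0.0908, edgeR adjusted p = 0.152, DESeq2 adjusted p = 3.75e-05). *Camk4*, a calcium-dependent kinase abundant in granule neurons, was at 95.8, 93.1 and 99.3 CPM in WT and at 70.1, 77.0 and 64.7 CPM in *Snx14*-KO cerebella (-0.44, SE 0.0782). In each case the spread within WT was small and every *Snx14*-KO mouse lay below it, which the choice by the smallest p favours. *Rab37*, a small GTPase of secretion, fitted -0.52 (SE 0.098), *Neb*, the actin filament ruler nebulin, fitted -0.62 (SE 0.130), and *Grk5*, a kinase of G protein-coupled receptors, fitted -0.37 (SE 0.0793). *Casq1*, a calcium store protein, was at 1.66 to 2.60 CPM in WT and at 0.639 to 0.864 CPM in *Snx14*-KO cerebella, and its fitted log2 fold change of -1.54 (SE 0.324) did not pass.

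DESeq2 called *Snx14*, *Gm20537*, *Fat2*, *Rab37*, *Neb*, *Cerkl*, *Myo1d*, *Cdh15*, the lincRNA gene *Mir670hg* and the pseudogenes *Gm13340* and *Gm13341* lower. *Cdh15*, the cell adhesion protein M-cadherin, was at 33.6, 26.7 and 38.1 CPM in WT and at 24.2, 23.0 and 21.6 CPM in *Snx14*-KO cerebella. *Mir670hg* was at 12.1, 12.1 and 14.4 CPM in WT and at 7.59, 8.37 and 7.61 CPM in *Snx14*-KO cerebella. Values of pseudogenes are uncertain, and read sharing with near-identical copies was not tested. The 13 listed cerebellar neuron markers, among which *Fat2* is itself a lower gene, summed to 13342 to 14654 CPM in WT and to 12278, 13458 and 10510 CPM in *Snx14*-KO replicates 1, 2 and 3. Only *Snx14*-KO replicate 2 lay within the WT range. The median log2 fold change of the list was -0.23, 0 of the 13 fitted a higher value, and 4 were lower at an unadjusted p under 0.05 (against 2.36% of all tested genes), namely *Fat2*, *En2*, *Cbln1* and *Etv1*. Their part in the other differences was not tested. *Calb1* and *Pcp2*, made by PCs, fitted -0.06 (SE 0.125) and 0.00 (SE 0.140), with no settled sign when libraries were left out in turn.

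Precision and the balance of higher and lower genes both varied with the level of a gene. Among the 1326 tested genes under 1 CPM, 68 (5.13%) were higher and 18 (1.36%) lower at an unadjusted p under 0.05. Among the 5546 genes at 1 to 10 CPM, 499 (9.0%) were higher and 88 (1.59%) lower, and DESeq2 called 85 higher and 1 lower. Genes at 1 to 10 CPM thus held the most uneven split. Among the 8911 genes at 10 to 100 CPM, 427 (4.79%) were higher and 214 (2.40%) lower, and DESeq2 called 62 higher and 9 lower. Among the 2418 genes at 100 CPM or more, the split was turned, with 70 (2.89%) higher and 110 (4.55%) lower, and DESeq2 called 2 higher and 1 lower. The median log2 fold changes of the tiers were 0.05, 0.06, -0.01 and -0.02 from the lowest to the highest. The median standard error of the log2 fold change was 0.451 under 1 CPM and 0.256, 0.102 and 0.0759 in the higher tiers, so the 1 to 10 CPM genes needed larger folds to reach the same p.

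**Figure D4:**
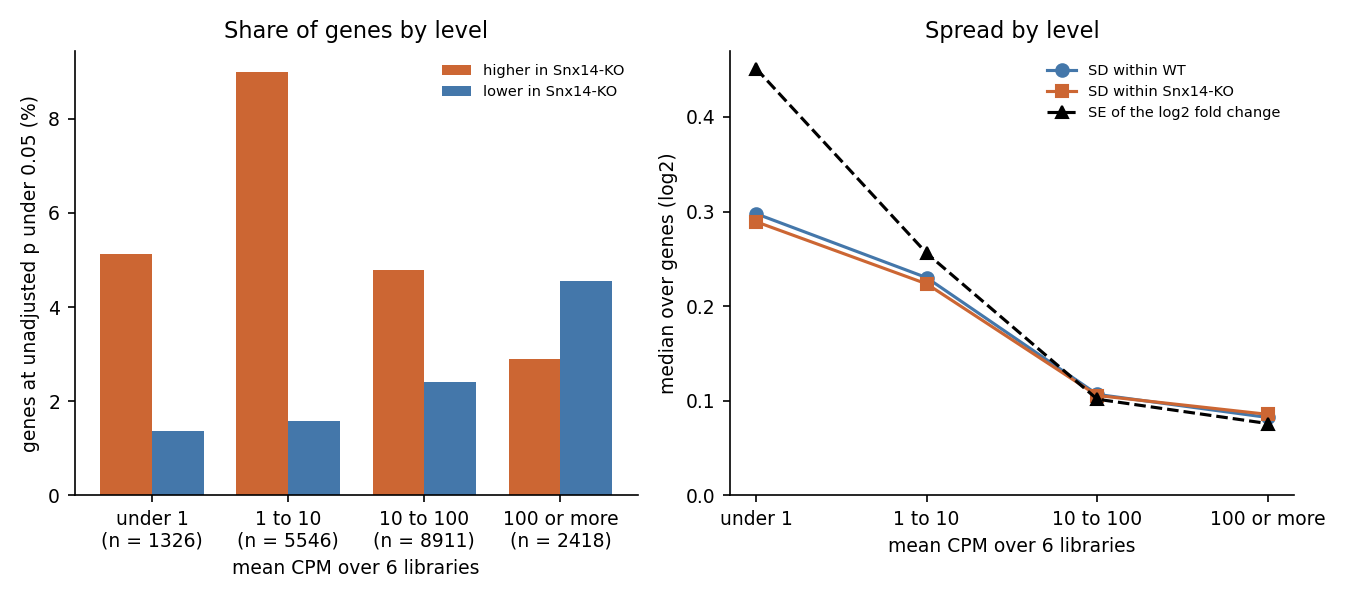
Left, share of tested genes at an unadjusted p under 0.05 (y axis, percent, from 0) by mean level in CPM (x axis, number of genes in brackets), higher in orange and lower in blue. Right, the median over genes of the SD within each genotype and of the standard error of the log2 fold change (y axis, log2) by the same tiers. Higher genes outnumber lower ones below 100 CPM, and the order turns above it.

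The genes with the smallest p were also taken within each tier. Under 1 CPM, these were *Slc22a2*, *Vill*, an actin-binding villin-like gene, and *Sstr4*, a somatostatin receptor gene. *Vill* was at 0.229, 0.301 and 0.170 CPM in WT and at 1.15, 1.05 and 1.5 CPM in *Snx14*-KO cerebella, and *Sstr4* was at 0.172, 0.181 and 0.170 CPM in WT and at 1.20, 0.639 and 0.864 CPM in *Snx14*-KO cerebella. At 1 to 10 CPM they were *Fgfbp1*, *Slc26a7* and *Cd74*, at 10 to 100 CPM *Snx14*, *Col6a2* and *Aldh1a2*, and at 100 CPM or more *Ptgds*, *Uchl1* and *Fat2*.

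Most tested genes, 14645, were protein coding, and they took 95.2% to 95.8% of the counts. Of them, 947 (6.47%) were higher and 362 (2.47%) lower at an unadjusted p under 0.05, and DESeq2 called 142 and 8. Of 1235 antisense genes, 52 (4.21%) were higher and 13 (1.05%) lower. Of 603 lincRNA genes, 19 (3.15%) were higher and 20 (3.32%) lower, and of 272 processed pseudogenes, 3 (1.10%) were higher and 5 (1.84%) lower. Of 220 miRNA genes, 10 (4.55%) were higher and 2 lower. The 413 genes of unknown type that await experimental support (TEC) had 11 higher and 13 lower, and the 383 processed transcripts had 15 and 4. These classes have lower counts than protein-coding genes, and the differences between the classes in these shares were not tested.

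The noncoding genes with the smallest p often share their bases with a protein-coding gene. The antisense gene *Nespas*, which lies over the imprinted gene *Gnas* with 38.5% of its exon bases shared, was at 0.516, 0.482 and 0.283 CPM in WT and at 2.45, 1.10 and 3.05 CPM in *Snx14*-KO cerebella. The lincRNA gene *Gm26883* shares 99.2% of its bases, mainly with *Tshz2*, and was at 14.8, 7.15 and 18.8 CPM in *Snx14*-KO cerebella against 4.98 to 6.57 CPM in WT. The miRNA gene *Gm23134* lies wholly (100%) over exons of other genes, mainly *Nnat*, an imprinted gene of the endoplasmic reticulum membrane. It was at 6.88, 8.74 and 8.38 CPM in WT and at 16.5, 12.1 and 17.9 CPM in *Snx14*-KO cerebella (log2 fold change 0.96, SE 0.174, edgeR adjusted p = 0.152). Counts on such a short gene cannot be told apart from those of its host transcript. *Peg13*, an imprinted transcript within *Trappc9*, was at 305, 277 and 290 CPM in WT and at 271, 256 and 254 CPM in *Snx14*-KO cerebella (-0.16, SE 0.0658).

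Gene families were described by how many of their tested members were higher or lower at an unadjusted p under 0.05, against 5.85% and 2.36% over all tested genes. For 48 families with at least 8 tested members these are counts, and no family was tested against the other genes. The largest share of higher members was in the S100 proteins, which bind calcium, with 3 of 9 (33.3%) higher and 0 lower. *S100a1* was at 58.0, 56.2 and 68.8 CPM in WT and at 71.3, 73.1 and 86.3 CPM in *Snx14*-KO cerebella, and *S100a8*, which is made by neutrophils, was at most 2.62 CPM in any library. Of 13 laminins and nidogens, which build basement membranes, 4 (30.8%) were higher and 0 lower. *Lamb2* was at 32.4, 32.2 and 33.7 CPM in WT and at 48.3, 42.2 and 42.8 CPM in *Snx14*-KO cerebella (log2 fold change 0.44, SE 0.0825), and *Lama4* fitted 0.79 (SE 0.185). Of 23 cadherins, 7 (30.4%) were higher and 1, *Cdh15*, was lower. Of 27 integrins, the receptors for matrix proteins, 4 were higher and 1 lower, with *Itga6* at 24.8, 24.1 and 24.9 CPM in WT and at 33.3, 30.3 and 38 CPM in *Snx14*-KO cerebella. Of 48 matrix metalloproteases and their inhibitors, 6 (12.5%) were higher and 1 lower, led by *Adamtsl3* with 1.78 (SE 0.321), and of 18 serpins, 4 were higher and 0 lower, led by *Serping1*, the C1 inhibitor, with 0.73 (SE 0.177). The meningeal fibroblast markers given above, all 13 of which fitted higher values, were higher in the same libraries, and their part in these counts was not tested.

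Signalling families varied in their counts. Of 36 Wnt pathway genes, 8 (22.2%) were higher and 0 lower, among them the receptor gene *Fzd2* (log2 fold change 1.20, SE 0.298) and the ligand gene *Wnt4* (0.71, SE 0.182). Of 27 TGF-beta and activin genes, 6 were higher and 1 lower. *Fstl1*, a secreted antagonist of BMP signalling, was at 27.7, 31.0 and 23.8 CPM in WT and at 40.2, 43.6 and 44.3 CPM in *Snx14*-KO cerebella, and *Ltbp4*, which stores TGF-beta in the matrix, fitted 0.53 (SE 0.101). Of 19 Notch pathway genes, 4 were higher and 0 lower, among them *Notch3*, the receptor of mural cells. Of 17 FGF genes, 2 were higher and 1 lower, and *Fgfr3*, a receptor of astrocytes, was at 108, 98.5 and 92.6 CPM in WT and at 129, 119 and 132 CPM in *Snx14*-KO cerebella. Of 41 Sox and forkhead factors, 7 (17.1%) were higher and 0 lower, with *Sox21* at 9.75, 9.16 and 8.72 CPM in WT and at 14.8, 13.8 and 14.8 CPM in *Snx14*-KO cerebella, and *Foxc1*, a regulator of the meninges, at 3.67, 5.55 and 4.02 against 8.34, 9.47 and 8.93 CPM. The part of the meningeal fibroblast markers and of the astrocyte markers, both given above, in the counts of these signalling families was not tested, and *Foxc2* and *Gdf10* belong to both a list and a family.

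Axon guidance genes were higher for 12 of 66 (18.2%) and lower for 4. *Epha5*, an ephrin receptor, was at 17.4, 20.5 and 16.3 CPM in WT and at 28.2, 24.0 and 31.7 CPM in *Snx14*-KO cerebella, and *Sema3d*, a secreted semaphorin, at 11, 11.3 and 8.15 against 14.5, 17.9 and 18.6 CPM. Of 68 protocadherins, 7 (10.3%) were higher and 0 lower, with *Pcdh7* at 84.7, 45 and 81.7 CPM in *Snx14*-KO cerebella and 36.9 to 47.9 CPM in WT. *Snx14*-KO replicate 2 thus lay within the WT range for *Pcdh7*. Of 10 voltage-gated sodium channel genes, 2 were higher and 1 lower, the latter *Scn2a* with -0.21 (SE 0.0764), named after its values were seen. *Snx14*-KO replicate 2 lay in or next to the WT range for the higher pair, where *Scn3a* was at 9.24, 2.56 and 10.8 CPM in *Snx14*-KO cerebella against 2.21 to 2.53 CPM in WT, and *Scn3b* at 11.8, 4.13 and 13.8 against 3.96 to 5.21 CPM. Of 23 voltage-gated calcium channel genes, 3 were higher and 1 lower, the latter *Cacng2*, a regulator of AMPA receptors known as stargazin, at 209, 213 and 200 CPM in WT and 178, 187 and 160 CPM in *Snx14*-KO cerebella (log2 fold change -0.25, SE 0.0736). Of 52 orphan receptors, 9 (17.3%) were higher and 0 lower. Among the 9, *Gpr26* was at 50.5, 8.89 and 42.9 CPM in *Snx14*-KO cerebella against 9.34 to 12.8 CPM in WT, with replicate 2 below WT. All *Snx14*-KO libraries lay above WT for 7 of the 52 (13.5%), against 6.99% of all tested genes.

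Immune families included both evenly carried and single-mouse differences. Of 76 chemokines, interleukins and their receptors, 17 (22.4%) were higher and 1 lower, led by *Il34*, a ligand of the CSF1 receptor, at 5.85, 6.33 and 4.36 CPM in WT and 11.8, 7.85 and 11.6 CPM in *Snx14*-KO cerebella. Of 18 Toll-like receptor and inflammasome genes, 2 were higher, and *Tlr4* was at 1.03, 1.75 and 1.19 CPM in WT and at 3.39, 2.85 and 3.57 CPM in *Snx14*-KO cerebella. Among the adhesion receptors, *Adgre1*, the macrophage marker F4/80, was at 4.79, 4.13 and 10.7 CPM in *Snx14*-KO cerebella against 2.81 to 3.79 CPM in WT, so replicate 3 carried most of its difference. The 29 cell cycle genes had 4 higher, and *Top2a* was at 0.918, 1.75 and 0.566 CPM in WT and 1.8, 2.27 and 5.65 CPM in *Snx14*-KO cerebella, again highest in replicate 3. The microglia and macrophage markers were higher in the same libraries, since all 8 fitted higher values with a median log2 fold change of 0.81, 5 had an unadjusted p under 0.05 and 1 was called by DESeq2. Their summed level was highest in replicate 3, as given above, and their part in these counts was not tested.

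Families of lipid and small-molecule metabolism gave mixed counts. Of 36 phospholipases, 3 were higher and 4 (11.1%) lower. *Plch2* was at 149, 126 and 156 CPM in WT and at 107, 125 and 100 CPM in *Snx14*-KO cerebella, and *Plpp3*, a lipid phosphatase of astrocytes, was at 305, 321 and 285 against 350, 348 and 371 CPM. Of 38 ABC transporters, 2 were higher and 1 lower, the latter *Abcg1*, which exports cholesterol, at 98.9, 93.9 and 89.9 CPM in WT and 78.5, 83.9 and 79.2 CPM in *Snx14*-KO cerebella (log2 fold change -0.23, SE 0.068). *Apoe*, the main lipoprotein of astrocytes, was at 1517, 1455 and 1598 CPM in WT and at 1691, 1690 and 2039 CPM in *Snx14*-KO cerebella. Of 30 glutathione transferases and peroxidases, which detoxify lipid peroxides and other compounds, 5 (16.7%) were higher and 0 lower, with *Gstp1* at 63.6, 65.2 and 67.8 CPM in WT and 81.5, 80.3 and 84.4 CPM in *Snx14*-KO cerebella (0.32, SE 0.0646). Of 24 cytochrome P450 genes, 5 were higher and 1 lower, and of 18 aldehyde and alcohol dehydrogenases, 3 were higher. All 6 astrocyte markers, with the dehydrogenase gene *Aldh1l1* among them, fitted higher values in these libraries (median log2 fold change 0.25), and their part in these values was not tested. None of these genes passed edgeR's adjusted threshold.

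**Figure D5:**
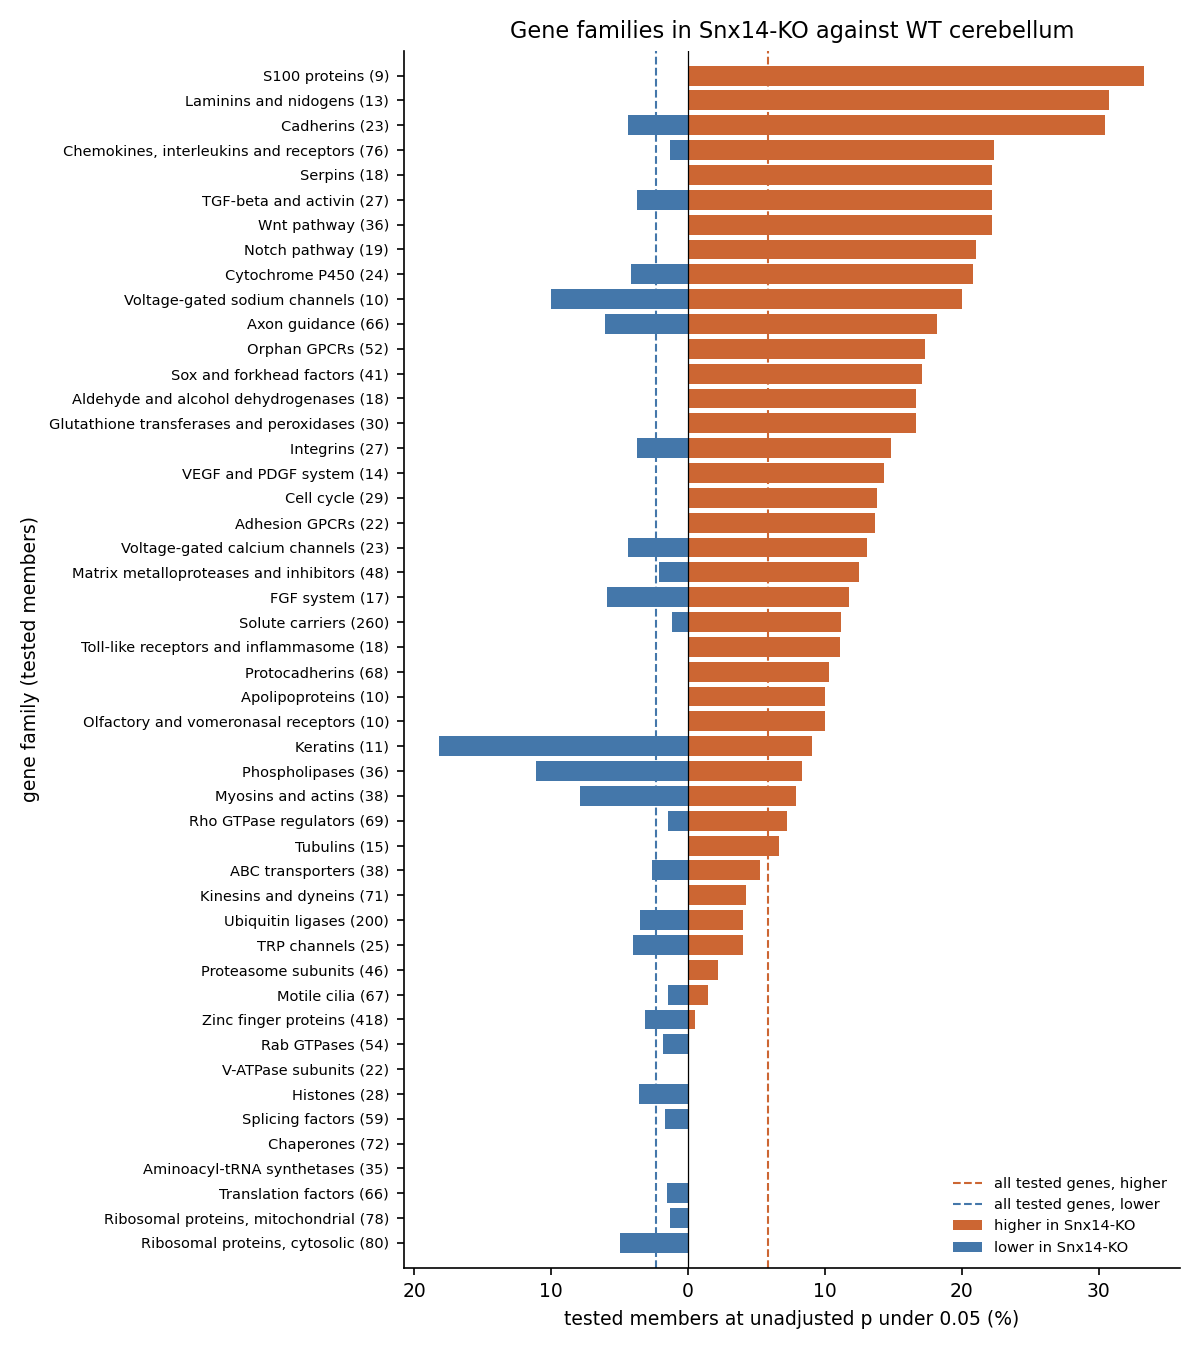
Share of tested members at an unadjusted p under 0.05 (x axis, percent, higher to the right in orange and lower to the left in blue) for 48 gene families (y axis, tested members in brackets). Dashed lines mark the shares over all tested genes, 5.85% higher and 2.36% lower. The largest share of higher members is 33.3%, for the S100 proteins, and the families at the bottom, such as the ribosomal proteins, have 0 higher members.

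Of 80 cytosolic ribosomal proteins, 0 were higher and 4 (5.0%) lower, with a median log2 fold change of -0.04 that ran from -0.07 to 0.01 when 1 library was left out. *Rpl35a* was at 151, 135 and 149 CPM in WT and at 122, 119 and 117 CPM in *Snx14*-KO cerebella (-0.28, SE 0.0682, edgeR adjusted p = 0.243). Of 78 mitochondrial ribosomal proteins, 66 translation factors, 59 splicing factors, 28 histones and 54 Rab GTPases, 1 each was lower and 0 were higher. Of 72 chaperones, 35 aminoacyl-tRNA synthetases and 22 subunits of the vacuolar ATPase, which acidifies lysosomes, 0 were higher and 0 lower. Of 46 proteasome subunits, 1 was higher. These are abundant genes with small standard errors, with family medians of the standard error between 0.067 and 0.0948 for the ribosomal, translation, proteasome, chaperone, splicing, synthetase and ATPase families. Zinc finger proteins, the largest family at 418 tested members, had 2 higher (0.478%) and 13 lower (3.11%), with a median of -0.05.

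The spread among mice was close in both genotypes over all genes. The median over genes of the SD of log2(CPM + 0.5) within *Snx14*-KO divided by that within WT was 0.987, and edgeR's common biological coefficient of variation was 0.134 in *Snx14*-KO and 0.145 in WT cerebella. The ratio rested on which mice were counted, running from 0.767 without *Snx14*-KO replicate 2 to 1.30 without WT replicate 1. The first 2 principal components of the 6 libraries held 32.5% and 27.7% of the variance. On the first, *Snx14*-KO replicates 1 and 3 lay at one end and WT replicate 1 at the other, with *Snx14*-KO replicate 2 between them and the other WT mice, so the genotypes were ordered but replicate 2 stood nearer to WT. The second ran from WT replicate 1 to WT replicate 3, with the 4 other libraries between.

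Families differed in spread. Motile cilia genes, which mark ependymal and choroid plexus cells, had a median SD of 0.673 within WT and 0.244 within *Snx14*-KO cerebella. The median SD within the genotypes fell with level, from 0.298 in WT and 0.289 in *Snx14*-KO under 1 CPM to 0.0823 and 0.0856 at 100 CPM or more. Beside *Xist* and the Y-linked genes, the genes at 10 CPM or more with the largest SD within *Snx14*-KO were *Gm44662*, *Nrgn* and *Fos*, and within WT *Ttr*, *Kl* and *Tmem72*. *Gm44662* was at 1.10 CPM in *Snx14*-KO replicate 1 and at 21.5 to 28.2 CPM in the other 5 libraries. *Dpp10*, a potassium channel subunit gene, was at 29.99 CPM in *Snx14*-KO replicate 2 and between 134 and 238 CPM elsewhere.

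By chromosome, the share of tested genes higher at an unadjusted p under 0.05 ran from 3.87% on chromosome 12 to 7.57% on chromosome 1, and the share lower from 1.54% on chromosome 3 to 3.59% on chromosome 14. Chromosome 9, which carries *Snx14*, had 71 of 1063 genes (6.68%) higher and 28 (2.63%) lower. By exon length, 69 of 1788 genes (3.86%) under 1 kb were higher and 38 lower, and 166 of 2705 (6.14%) of 8 kb or more were higher and 103 (3.81%) lower. The longest genes had the largest share of lower genes among the 5 length classes.

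In the cerebral cortex, *Ptgds* fitted a log2 fold change of 0.54 (SE 0.0971, edgeR adjusted p = 0.454) against 1.34 in cerebellum. By DESeq2 it fitted 0.54 in cortex with an adjusted p of 5.60e-05, so DESeq2 called *Ptgds* higher in both tissues. *Fgfbp1* fitted 1.22 in cortex against 2.65 in cerebellum, *Col1a2* 0.98 against 0.95 and *Alcam* -0.04 against 0.95. An interaction of genotype and tissue was fitted to the 12 libraries without a term for the mouse. By edgeR, 0 of the 150 named genes reached an adjusted p under 0.05 (smallest 0.106) and 54 an unadjusted p under 0.05, and DESeq2 called 6. The 150 leave out the genes named for their SD, of which DESeq2 also called *Nrgn* (adjusted p = 0.0405 from DESeq2). With the mouse as a block, since the labels name the same mice in both tissues, edgeR called 0 of the 150 (smallest adjusted p 0.136, with 61 at an unadjusted p under 0.05). DESeq2 called 3, *Ildr2*, *Alcam* and *Gm37264*. Most of the 150 were chosen for the smallest p of their group in cerebellum, which favours a tissue difference. The share over all genes in these fits was not counted. The cortex values therefore do not show that the named genes as a set moved in cerebellum only. For *Ildr2*, *Alcam* and *Gm37264*, DESeq2 called a tissue difference with and without the block, and edgeR did not.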

How the data were processed

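RNA-Seq libraries of 3 WT and 3 *Snx14*-KO cerebella were compared. After trimming, the authors aligned reads to GRCm38 by STAR, and featureCounts (Subread 2.0.1) assigned the pairs to genes. The deposited values are raw counts without normalization. The authors' counting ignored strand, left out reads with several positions and let a pair count towards each gene it touched, so overlapping genes share reads. Numbered features (0.0575% to 0.0632% of counts in cerebellum) were left out.

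Tests used R 4.3.3 and edgeR 4.0.16 with TMM scaling, filterByExpr and the quasi-likelihood fit that adjusts for small counts. DESeq2 1.42.0 and limma 3.58.1 were alternatives. Scripts were tested on simulated data. The p-values measure the spread between 3 mice per genotype, and values cover no other clone or strain. Named genes were *Snx14*, the 20 higher and 10 lower genes with the smallest p, genes that DESeq2 called lower, 3 per expression tier, 2 per gene type of 20 or more and per family of 8 or more tested members, and 8 per genotype with the largest SD. Others are said to be chosen after their values were seen, or are marker genes of the cell type lists. Members, families and lists were chosen with earlier results of these data known. Columns of unmapped samples numbered 0.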

Additional observations from a re-analysis of the deposited data

Results flagged for a closer look

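DESeq2's interaction test called 6 of the 150 named genes, which leave out those named for their SD, as different between the tissues. EdgeR's test called none of the 150 (smallest adjusted p 0.106). The cerebellar minus the cortical log2 fold change was 0.78 for *Ptgds* (adjusted p = 0.0297 from DESeq2), 1.26 for *Ildr2* (7.84e-06), 0.97 for *Alcam* (1.92e-05), 2.27 for *Vill* (0.0405) and 4.07 for *Gm37264* (1.92e-05). For *Exph5* it was -0.69 (0.000770). Among the genes named for their SD, DESeq2 also called *Nrgn*, with a difference of 4.22 (adjusted p = 0.0405 from DESeq2 and 0.220 from edgeR). With the mouse as a block, DESeq2 called, of the 6, *Ildr2*, *Alcam* and *Gm37264* and no longer *Ptgds*, *Exph5* or *Vill*. *Vill* and *Gm37264* rest on few read pairs in WT, and 22.5% of the exon bases of *Gm37264* are shared, mainly with *Asic4*. Groups of 3 libraries were not tested for outlying samples.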

How the results depend on the processing

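*Snx14* kept its sign and its adjusted p under 0.05 in every alternative run, with a log2 fold change from -2.60 to -2.54 when 1 library was left out. The count of upregulated genes, 1 (*Ptgds*), became 168 by DESeq2, 10 by the robust fit, 18 with every gene with a count, 26 with all 12 libraries, and 0 by the legacy fit, with RLE size factors, with a mean CPM of 1 or more, without genes sharing exon bases, with the replicate block and with a term for sex. With 1 library left out it ran from 0 (without WT replicate 1 or *Snx14*-KO replicate 1 or 3) to 265 (without *Snx14*-KO replicate 2), with 13 without WT replicate 2. The count of downregulated genes, 1, became 11 by DESeq2 and 2 with all 12 libraries, and ran from 1 to 10 with 1 library left out, 10 being without *Snx14*-KO replicate 2. DESeq2's counts ran from 34 to 326 higher and from 3 to 22 lower when a library was left out, both lowest without *Snx14*-KO replicate 3 and highest without *Snx14*-KO replicate 2. Genes at an unadjusted p under 0.05 ran from 633 to 1369 higher and from 312 to 657 lower with 1 library left out, and were 472 and 235 without *Snx14*-KO replicates 1 and 3, where the lone *Snx14*-KO library is assumed to vary like WT. In that fit *Ptgds* had an adjusted p of 0.354 by edgeR, and the 1 gene called higher was the pseudogene *Atp6v0c-ps2*, named after its values were seen. The median SD ratio ran from 0.767 to 1.30. Among the named genes other than those named for their SD, DESeq2 called 6 tissue differences against 0, and 3 with the replicate block by mouse. The replicate block was tried because the numbers are shared. Same-numbered mice deviated together with correlations of 0.0556, 0.0333 and -0.0474, so these values show no pairing by number. With 3 libraries per genotype, they cannot tell whether such mice shared a litter or batch. With the block, *Ptgds* had an adjusted p of 0.0621 by edgeR, and 1085 genes were higher and 415 lower at an unadjusted p under 0.05. The next counts cover the named genes other than *Snx14* and those named for their SD. For them, DESeq2, library size alone and the fits with 1 library left out gave 1074 values that kept the side of the threshold. A further 115 passed it and 3 lost it (*Ptgds*), none with a changed sign. Among the genes named for their SD, all but *Nrgn* changed sign in some fit with 1 library left out, such as *Ttr* from -1.29 to 0.58. Of the alternatives for family, type and tier medians, 477 stayed within the spread and 117 moved beyond it. The sex term, the block by mouse, the pair left out, DESeq2's left-out libraries and the counts at an unadjusted p were chosen after seeing the data. The cause of these moves was not tested. Low counts limit the genes under 1 CPM, whose standard errors are the largest.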
